A study of Mus musculus with 2 samples.

Results

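The MHC class I genes B2m, H2-D1, H2-K1, Tap1 and Tapbp were followed across the cell types of a sorted mouse pancreas sample. These 5 of the 14789 measured gene symbols were given by name, with no threshold on a measured value. The cells came from adult mice of the genotype Tff2CreERT2; R26-tdTomato that had been given tamoxifen. In this line an inducible Cre recombinase driven by Tff2 switches on a red fluorescent protein (RFP), and the sort kept cells that were CD45-, TER119-, EpCAM+ and RFP+. The labels name 2 biological replicates of this 1 group and no control, and cells could not be tied to either, so the 728 cells are 1 pooled sample with no replicate check. All intervals are 95% intervals for counting error only, and no p-value is given.

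Class I molecules sit on the surface of most nucleated cells and show T cells fragments of the proteins made inside. A heavy chain, encoded by H2-D1 or H2-K1 among others, pairs with the invariant light chain beta-2 microglobulin, encoded by B2m, and without that light chain most heavy chains do not reach the surface. Tap1 encodes a subunit of the transporter that carries peptides into the endoplasmic reticulum, and Tapbp encodes tapasin, which holds empty heavy chains next to the transporter until they are loaded.

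Cells were assigned to classes by the transcripts they held, counted as unique molecular identifiers (UMIs), which mark single captured molecules. Acinar cells, which make digestive enzymes, had at least 10% of their UMIs from Ctrb1, Try4, Cela1 and Prss2 (262 cells). Ductal cells had at least 2 UMIs of Krt19 and Epcam (32 cells). B cells had at least 2 UMIs of Cd79a, Cd79b and Ms4a1 (101 cells), and T cells at least 2 of Cd3e, Cd3d and Cd3g (68 cells). Endothelial cells, which line vessels, had at least 5 UMIs of Kdr, Cdh5, Pecam1 and Egfl7 (159 cells). The acinar rule fell in a gap, with the lowest acinar cell at 11.5% and the highest other cell at 9.54%, whereas 11 ductal, 4 B, 8 T and 5 endothelial cells sat just on their thresholds. A further 16 cells with at least 10% of UMIs from haemoglobin genes were kept apart as cells with little other RNA. Another 10 cells met more than 1 rule and 80 met none.

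Markers that the rules did not use went with the class names. The levels below are counts per 1000000 UMIs of a class (CPM). The 6 further acinar markers reached 55993 CPM in acinar cells and at most 1521 CPM in the other 4 classes. The 5 further ductal markers reached 20724 CPM in ductal cells, against at most 289 CPM in the other 4. The B, T and endothelial markers reached 33092, 3698 and 7195 CPM in their own classes, and at most 234, 216 and 55.2 CPM in the others. Lymphocytes and endothelial cells were thus in the table although the sort had selected EpCAM+ and CD45- cells. Classes differed in depth, with medians of 2101.5 UMIs per acinar cell, 3294.5 per ductal cell, 1622 per B cell, 2415 per T cell and 1879 per endothelial cell. Digestive enzymes took 72.9% of the UMIs of acinar cells and 1.55% to 2.22% in the other 4 classes, so levels are also given with enzyme UMIs left out of the totals. Of the 262 acinar cells, 45 had a barcode ending in 2, which was the ending of 1 endothelial, 2 B, 5 T and 3 ductal cells. In addition, 13 acinar cells carried a barcode sequence found under both endings.

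B2m lies on chromosome 2 (GRCm38, 122147686 to 122153083, plus strand), and the other 4 genes lie on chromosome 17, in or next to the major histocompatibility complex. These are H2-K1 (33996017 to 34000347, minus strand), Tapbp (33915899 to 33929292, plus strand), Tap1 (34187553 to 34197225, plus strand) and H2-D1 (35262730 to 35267499, plus strand). All 5 are annotated as protein coding. The promoters of the light chain and of the 2 heavy chains are shown because these 3 genes carried most UMIs of the 5 members and share motifs, from 250 bases before the start to 50 bases after it (RefSeq, GRCm38.p6). They are B2m at chr2:122147437-122147736 (plus strand), H2-D1 at chr17:35262844-35263143 (plus strand) and H2-K1 at chr17:34000298-34000597 (minus strand). Capitals mark matches, on either strand, to AANNGAAA (the core of interferon regulatory factor sites), the kappa B motif of nuclear factor kappa B sites and TGACGC (CRE-like).
B2m: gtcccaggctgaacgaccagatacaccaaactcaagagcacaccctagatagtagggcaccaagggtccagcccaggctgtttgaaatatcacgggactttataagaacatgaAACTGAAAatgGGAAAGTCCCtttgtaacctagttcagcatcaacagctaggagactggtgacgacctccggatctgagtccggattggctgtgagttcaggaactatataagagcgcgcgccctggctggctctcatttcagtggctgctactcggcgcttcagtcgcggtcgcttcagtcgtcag
H2-D1: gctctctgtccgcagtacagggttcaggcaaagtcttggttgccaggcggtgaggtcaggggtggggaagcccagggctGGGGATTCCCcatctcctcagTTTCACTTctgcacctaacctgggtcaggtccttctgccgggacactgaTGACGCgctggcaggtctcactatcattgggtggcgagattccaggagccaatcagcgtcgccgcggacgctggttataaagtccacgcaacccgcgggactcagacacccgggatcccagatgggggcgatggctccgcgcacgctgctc
H2-K1: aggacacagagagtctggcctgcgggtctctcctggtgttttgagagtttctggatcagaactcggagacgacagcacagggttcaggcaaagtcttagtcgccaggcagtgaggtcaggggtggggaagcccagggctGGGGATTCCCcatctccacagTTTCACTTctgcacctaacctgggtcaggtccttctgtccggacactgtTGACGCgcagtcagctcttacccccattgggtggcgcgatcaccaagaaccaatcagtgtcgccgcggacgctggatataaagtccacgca
The H2-D1 and H2-K1 promoters held 1 match to each of the 3 motifs, in the same order, and shared an identical run of 47 bases that ends just before the interferon motif. The B2m promoter held the first 2 motifs in the opposite order and no match to TGACGC, and its longest run shared with either heavy chain was 8 bases. The Tap1 and Tapbp windows held no match to any of the 3. Over the 32851 promoters of the same length, 23.9% held AANNGAAA, 4.79% held the kappa B motif and 7.40% held TGACGC. A match is only a stretch of letters, and no binding was measured.

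B2m, the light chain, had the most UMIs of the 5 members in endothelial, T, B and ductal cells and few in acinar cells. In ductal cells its first place leaned on 1 cell, with 26 of the 88 B2m UMIs and 4 of the 70 H2-D1 UMIs. Without that cell H2-D1 had the most. Its level was 27.2 CPM in acinar cells (18.3 to 38.8, 30 UMIs), 704 CPM in ductal cells (565 to 867, 88 UMIs), 2243 CPM in B cells (2040 to 2461, 447 UMIs), 2907 CPM in T cells (2663 to 3167, 522 UMIs) and 5255 CPM in endothelial cells (5025 to 5492, 1966 UMIs). No 2 of these intervals overlapped, so the order from acinar to endothelial was clear of counting error at each step. Per cell, B2m ranged from 0 over a median of 0 to 4 UMIs in acinar cells, from 0 over 1 to 26 in ductal cells, from 0 over 4 to 41 in B cells, from 1 over 7 to 20 in T cells and from 1 over 10 to 64 in endothelial cells. Each T cell and each endothelial cell had at least 1 UMI, and 241 acinar cells had none. The log2 ratio of acinar over endothelial cells was -7.57 (-8.17 to -7.08), and -5.72 (-6.31 to -5.22) with enzyme UMIs left out.

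H2-D1 and H2-K1 encode classical heavy chains, and they did not follow the same pattern. H2-D1 stood at 34.4 CPM in acinar cells (24.4 to 47.3, 38 UMIs), 560 CPM in ductal cells (436 to 707), 1259 CPM in B cells (1108 to 1425), 1225 CPM in T cells (1069 to 1398) and 2416 CPM in endothelial cells (2261 to 2579). B and T cells could not be told apart for H2-D1, and the other steps were clear of counting error. H2-K1 stood at 104 CPM in acinar cells (86.1 to 125, 115 UMIs), 440 CPM in ductal cells (331 to 573), 803 CPM in B cells (683 to 937), 1153 CPM in T cells (1001 to 1321) and 1564 CPM in endothelial cells (1439 to 1696). None of the H2-K1 intervals overlapped. The log2 ratio of acinar over endothelial cells was -6.11 (-6.64 to -5.66) for H2-D1 and -3.90 (-4.21 to -3.62) for H2-K1. Both shrank, to -4.26 (-4.79 to -3.81) for H2-D1 and -2.05 (-2.35 to -1.76) for H2-K1, with enzyme UMIs left out. Per acinar cell H2-K1 ranged from 0 over a median of 0 to 6 UMIs, against 0 over 3 to 16 in endothelial cells, and H2-D1 from 0 over 0 to 6 UMIs, against 0 over 4 to 24.

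Tap1 and Tapbp were sparse throughout. Tap1, the transporter subunit, had 7 UMIs in acinar cells (6.34 CPM, 2.55 to 13.1), 15 in B cells (75.3 CPM, 42.1 to 124), 8 in T cells (44.6 CPM, 19.2 to 87.8) and 34 in endothelial cells (90.9 CPM, 62.9 to 127). Ductal cells had no Tap1 UMI. A limit of 3 counts, 24 CPM, lies 3.79-fold below the endothelial level, and the interval of the log2 ratio ends at -1.54. Acinar Tap1 lay under that ductal limit, so no ratio of acinar to ductal cells is given. Tapbp, the loading factor, stood at 14.5 CPM in acinar cells (8.29 to 23.5, 16 UMIs), 112 CPM in ductal cells (61.2 to 188), 151 CPM in B cells (102 to 215), 178 CPM in T cells (122 to 252) and 388 CPM in endothelial cells (327 to 456). Ductal, B and T cells overlapped for Tapbp, with acinar cells below and endothelial cells above them. The log2 ratio of acinar over endothelial cells was -3.76 (-5.26 to -2.64) for Tap1 and -4.70 (-5.59 to -3.99) for Tapbp, and -1.91 (-3.41 to -0.79) and -2.85 (-3.73 to -2.14) with enzyme UMIs left out.

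**Figure D1:**
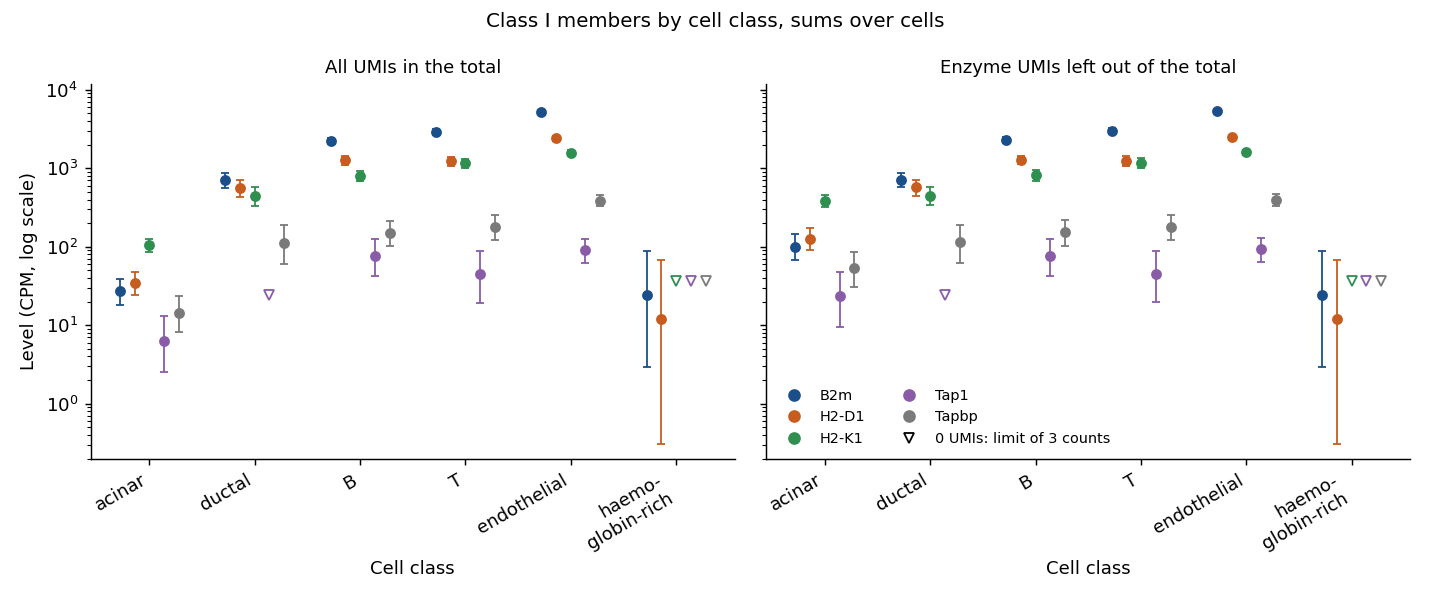
Levels of the 5 members by cell class in CPM on a log axis, with all UMIs in the total (left) or enzyme UMIs left out (right); points are sums over the cells of a class, bars are 95% Poisson intervals and open triangles are limits of 3 counts where no UMI was found. Among the 5 classes acinar cells are lowest for B2m, at 27.2 CPM with all UMIs in the total, close to the 24.1 CPM of the haemoglobin-rich cells. With enzyme UMIs left out these values are 100 and 24.3 CPM. H2-K1 stands above B2m in acinar cells, at 104 CPM, whereas endothelial cells have B2m at 5255 CPM on top.

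All 4 members with at least 50 UMIs over both classes were over 2-fold lower in acinar than in endothelial cells, as were 80.3% of all 1846 genes above that floor, while 7.37% were over 2-fold higher. The size of the difference was less common than its direction, since 7.20% of those genes had a lower ratio than B2m, 14.1% a lower ratio than H2-D1, 21.6% than Tapbp and 30% than H2-K1. All 4 members were, with enzyme UMIs left out, still over 2-fold lower, beside 48.2% of genes lower and 16.7% higher. Tap1 had under 50 UMIs over the 2 classes and is not in these counts. B2m, H2-D1 and Tapbp had 30, 38 and 16 acinar UMIs and met the floor through their 1966, 904 and 145 endothelial UMIs. A lower acinar value was thus built into their place in these counts, which are no support for it. H2-K1 had 115 acinar UMIs. The median log2 ratio was -5.41 over the 4 members and -2.69 over all genes above the floor, and -3.55 and -0.87 with enzyme UMIs left out.

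Against ductal cells, the other epithelial class, acinar cells were lower for B2m and H2-D1 on both scales, while H2-K1 and Tapbp depended on the scale. The log2 ratio of acinar over ductal cells was -4.68 (-5.34 to -4.08) for B2m, -4.01 (-4.63 to -3.43) for H2-D1, -2.96 (-4.08 to -1.80) for Tapbp and -2.08 (-2.55 to -1.59) for H2-K1. All 3 members above the floor were over 2-fold lower, beside 72.1% of genes lower and 11.1% higher. B2m and H2-D1 met the floor through 88 and 70 ductal UMIs, with 30 and 38 in acinar cells. A lower acinar value was thus built into their part of the count. Leaving enzyme UMIs out gave -2.82 (-3.48 to -2.22) for B2m and -2.15 (-2.77 to -1.57) for H2-D1. H2-K1 then stood at 385 CPM in acinar cells and 448 CPM in ductal cells, a log2 ratio of -0.22 (-0.69 to 0.27) whose interval holds 0. Tapbp was then at -1.10 (-2.22 to 0.057), an interval that also holds 0, on 16 acinar and 14 ductal UMIs. On that scale 2 of 3 members were over 2-fold lower, beside 30.6% of genes lower and 23.3% higher. The ductal B2m level leaned on 1 cell with 26 of the 88 UMIs, and without it the log2 ratio of acinar over ductal cells was -4.22.

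Against both lymphocyte classes acinar cells were again lower for B2m, H2-D1, H2-K1 and Tapbp on both scales, and for Tap1 with all UMIs in the total. Over B cells the log2 ratio was -6.34 (-6.95 to -5.83) for B2m, -5.18 (-5.72 to -4.70) for H2-D1 and -2.94 (-3.30 to -2.59) for H2-K1, and all 3 members above the floor were lower, beside 60.6% of genes. Over T cells it was -6.72 (-7.32 to -6.21) for B2m, -5.14 (-5.69 to -4.65) for H2-D1 and -3.46 (-3.81 to -3.13) for H2-K1, beside 60% of genes lower. With enzyme UMIs left out the same 3 members were over 2-fold lower in each comparison, beside 27.1% of genes against B cells and 27.3% against T cells. B2m and H2-D1, with 30 and 38 acinar UMIs, met the floor through lymphocyte UMIs in both comparisons. A lower acinar value was thus built into their part of these counts. Of these 3 members the smallest difference was H2-K1 in acinar over B cells, at a log2 ratio of -1.09 (-1.45 to -0.73) with enzyme UMIs left out. Tapbp, under the floor in both comparisons, was at -3.36 (-4.35 to -2.45) over B cells and -3.60 (-4.58 to -2.71) over T cells, and at -1.50 (-2.49 to -0.60) and -1.73 (-2.72 to -0.85) with enzyme UMIs left out. Tap1, also under the floor, was at -3.52 (-5.10 to -2.19) over B cells and -2.80 (-4.51 to -1.15) over T cells. Tap1 was, with enzyme UMIs left out, at -1.66 (-3.25 to -0.33) over B cells and -0.94 (-2.64 to 0.71) over T cells, and the interval over T cells holds 0.

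Among the other classes, endothelial cells had the highest level of each member with all UMIs in the total, although Tap1 overlapped with B and T cells. The log2 ratio of ductal over endothelial cells was -2.89 (-3.23 to -2.59) for B2m, -2.10 (-2.48 to -1.76) for H2-D1, -1.82 (-2.26 to -1.43) for H2-K1 and -1.75 (-2.70 to -1.0) for Tapbp, and all 4 were over 2-fold lower, beside 27.9% of genes. The ratio of B over endothelial cells was -1.23 (-1.38 to -1.08) for B2m and -1.35 (-1.98 to -0.79) for Tapbp, the 2 of 4 members past 2-fold, beside 42.8% of genes. T over endothelial cells gave -0.85 (-1.0 to -0.71) for B2m, -0.98 (-1.20 to -0.77) for H2-D1 and -1.10 (-1.72 to -0.56) for Tapbp, which alone of 4 passed 2-fold, beside 44.3% of genes. Tapbp, with 14 ductal, 30 B and 32 T UMIs, met the floor in these comparisons through its 145 endothelial UMIs. Its place in these counts is thus no support for a lower value. H2-K1 in T over endothelial cells was -0.44 (-0.68 to -0.21). It turned to 0.23 (-0.011 to 0.46) when enzyme, ribosomal protein and mitochondrial UMIs were left out of totals. On those totals T over endothelial cells gave -0.19 (-0.33 to -0.05) for B2m and -0.31 (-0.53 to -0.10) for H2-D1. Tapbp was at -0.44 (-1.06 to 0.10), an interval that holds 0. B over endothelial cells then gave -0.70 for B2m and -0.82 for Tapbp, no longer past 2-fold. Ribosomal protein genes took 44.8% of the UMIs of T cells and 14.1% of those of endothelial cells.

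**Figure D2:**
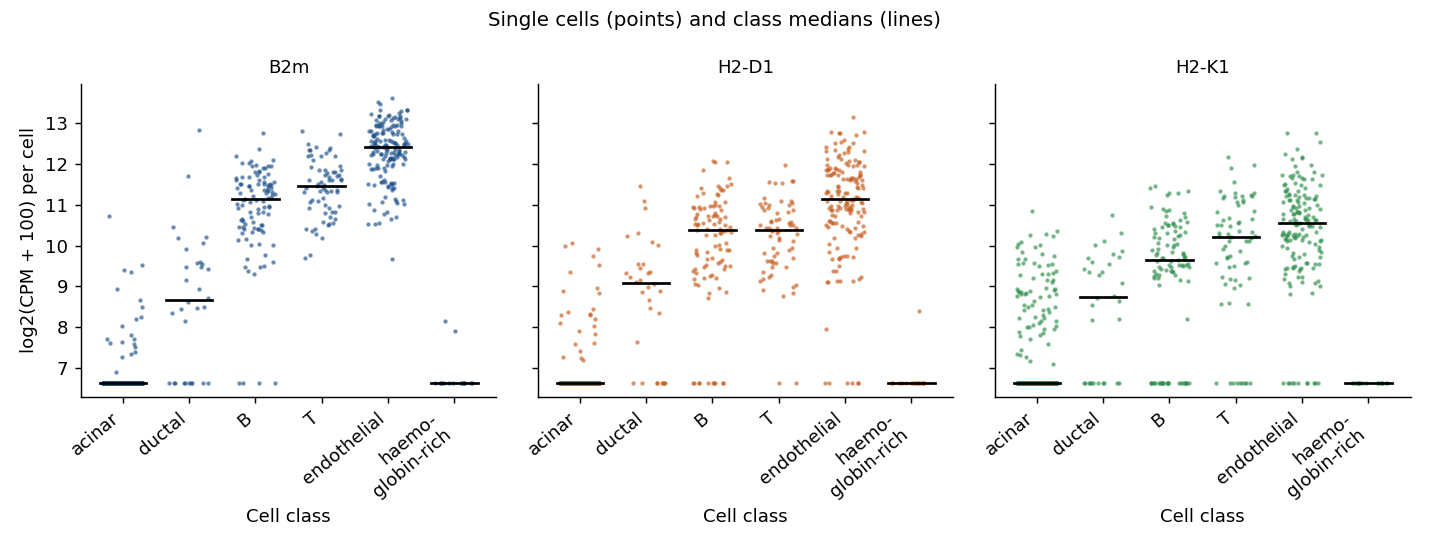
Each point is 1 cell, placed by class and by log2(CPM + 100) of B2m, H2-D1 or H2-K1, and lines are class medians; cells with no UMI lie on the bottom row. Acinar cells with a UMI are more numerous for H2-K1 (79 cells) than for B2m (21 cells), whereas each endothelial cell has B2m.

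Acinar cells differed from the other classes not only in amount but also in the order of the members. CPM takes no account of transcript length, and the captured end of the transcript is a detail not given in the sources used here, so the ratio between 2 members is compared only from class to class. H2-K1 had 3.83 UMIs for each B2m UMI in acinar cells (2.55 to 5.94), 0.625 in ductal cells (0.438 to 0.885), 0.358 in B cells (0.297 to 0.430), 0.397 in T cells (0.336 to 0.467) and 0.298 in endothelial cells (0.271 to 0.327). The odds of an H2-K1 rather than a B2m UMI were 12.9 times as high in acinar as in endothelial cells (8.44 to 20.1). H2-K1 made up 55.8% and B2m 14.6% of the 206 UMIs of the 5 members in acinar cells, against 16.1% and 54.1% of 3634 in endothelial cells. Ductal cells lay between, with odds 2.10 times those of endothelial cells (1.45 to 3.01). The ductal values lean on 1 cell with 26 of the 88 B2m UMIs and 2 of the 55 H2-K1 UMIs. The ratio of H2-D1 to B2m was 1.27 in acinar cells (0.764 to 2.12) and 0.460 in endothelial cells (0.425 to 0.498). Both totals give the same ratios, since the totals cancel.

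**Figure D3:**
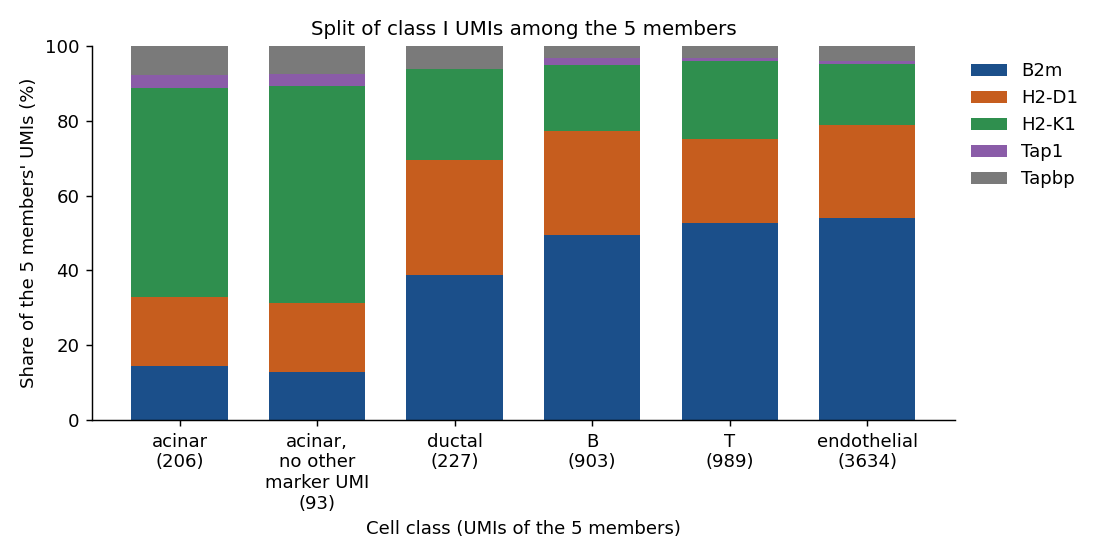
Stacked bars show the share in percent of the UMIs of the 5 members that each member took in a class, with the number of UMIs in brackets under the class. H2-K1 is the largest share in acinar cells (55.8%). The same holds where only acinar cells with no UMI of the endothelial, B, T, class II and macrophage or dendritic markers are kept. Ductal markers were not among these. B2m is the largest in the other classes (54.1% in endothelial cells), in ductal cells through 1 cell with 26 of the 88 B2m UMIs.

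Most acinar cells that held H2-K1 had no UMI of B2m. Of the 262 acinar cells, 69 had H2-K1 without B2m, 11 had B2m without H2-K1, 10 had both and 153 had none of the 5 members. H2-K1 was spread thinly, with 1 UMI in 56 cells and 2 UMIs in 16, and the 10 highest cells held 28.7% of its UMIs. By depth, H2-K1 stood at 116 CPM in acinar cells under 1500 UMIs (59.9 to 202), 174 CPM from 1500 to under 3000 (119 to 244) and 86.5 CPM at 3000 or more (67.4 to 109), while B2m stood at 19.3, 21.0 and 29.6 CPM. H2-K1 was above B2m in each of the 3 depth ranges. By share of the 4 rule enzymes, the 245 cells from 10 to under 40% had H2-K1 at 105 CPM and B2m at 27.2 CPM, and the 17 cells from 40 to under 60% had 3 UMIs of H2-K1 and 1 of B2m. No acinar cell reached 60%. Under ending 1, acinar cells had 108 UMIs of H2-K1 and 26 of B2m, a ratio of 4.15 (2.69 to 6.64). Under ending 2 they had 7 and 4, a ratio of 1.75 (0.445 to 8.15) whose interval holds 1, so the order was not resolved there.

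Free RNA from broken cells puts UMIs of one cell type into another, and values that bear on it are given beside the acinar levels. The 16 haemoglobin-rich cells, at a median of 5371.5 UMIs, had 2 UMIs of B2m (24.1 CPM, 2.92 to 87.1), 1 of H2-D1 (12.1 CPM, 0.305 to 67.2) and none of H2-K1, Tap1 or Tapbp, which limits each of these to 36.2 CPM. With all UMIs in the total, acinar B2m and H2-D1 lay within those intervals, and acinar H2-K1 (104 CPM) lay above that limit. Leaving enzyme UMIs out put acinar B2m at 100 CPM (67.8 to 143), against 24.3 CPM (2.95 to 87.9) in haemoglobin-rich cells. H2-D1 was then at 127 CPM (90.1 to 175), against 12.2 CPM (0.308 to 67.8). On that scale both acinar levels lay above the haemoglobin-rich intervals, and the intervals overlapped for B2m but not for H2-D1. In acinar cells the 9 endothelial markers had 45 UMIs, the 8 B markers 66 and the 9 T markers 13. H2-K1 numbered 2556 UMIs per 1000 endothelial marker UMIs in acinar cells (1796 to 3692), against 110 in endothelial cells (101 to 120). B2m numbered 667 in acinar cells (406 to 1082), against 369 in endothelial cells (350 to 389). In the 164 acinar cells with no UMI of the endothelial, B, T, class II and macrophage or dendritic markers, H2-K1 was at 112 CPM and B2m at 24.8 CPM, a ratio of 4.50 (2.38 to 9.24). The order of the members was thus the same without the cells that held such a marker, and the part of free RNA in the low acinar B2m and H2-D1 was not tested.

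Across the 5 classes the shares of cells with a UMI of B2m or H2-K1 broadly followed the levels. Between members they did not always, since B2m was found in fewer ductal cells than H2-D1 (75%). B2m was found in 8.02% of acinar cells (5.03 to 12), 68.8% of ductal, 96.0% of B, 100% of T and 100% of endothelial cells, and in 12.5% of the haemoglobin-rich cells. To remove differences in depth, cells were thinned to 1000 UMIs apiece, and no cell was too shallow for this. B2m was then found in 3.05% of acinar cells (1.33 to 5.93), 31.2% of ductal, 89.1% of B, 94.1% of T and 97.5% of endothelial cells. H2-K1 was found in 9.92% of acinar cells, 43.8% of ductal, 51.5% of B, 69.1% of T and 74.8% of endothelial cells at that depth, beside 30.2% and 93.1% of acinar and endothelial cells unthinned. None of the 16 haemoglobin-rich cells kept a UMI of either gene after thinning, which allows a share of up to 20.6% by the exact interval. Thinned to 300 UMIs outside the enzyme list, which kept 206 acinar cells, H2-K1 was found in 16.0% of acinar and 12.5% of ductal cells, and B2m in 1.94% of acinar and 12.5% of ductal cells. On that scale the intervals of acinar and ductal cells overlapped for H2-K1 (11.3 to 21.8 against 3.51 to 29.0) and for B2m (0.532 to 4.90 against 3.51 to 29.0).

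**Figure D4:**
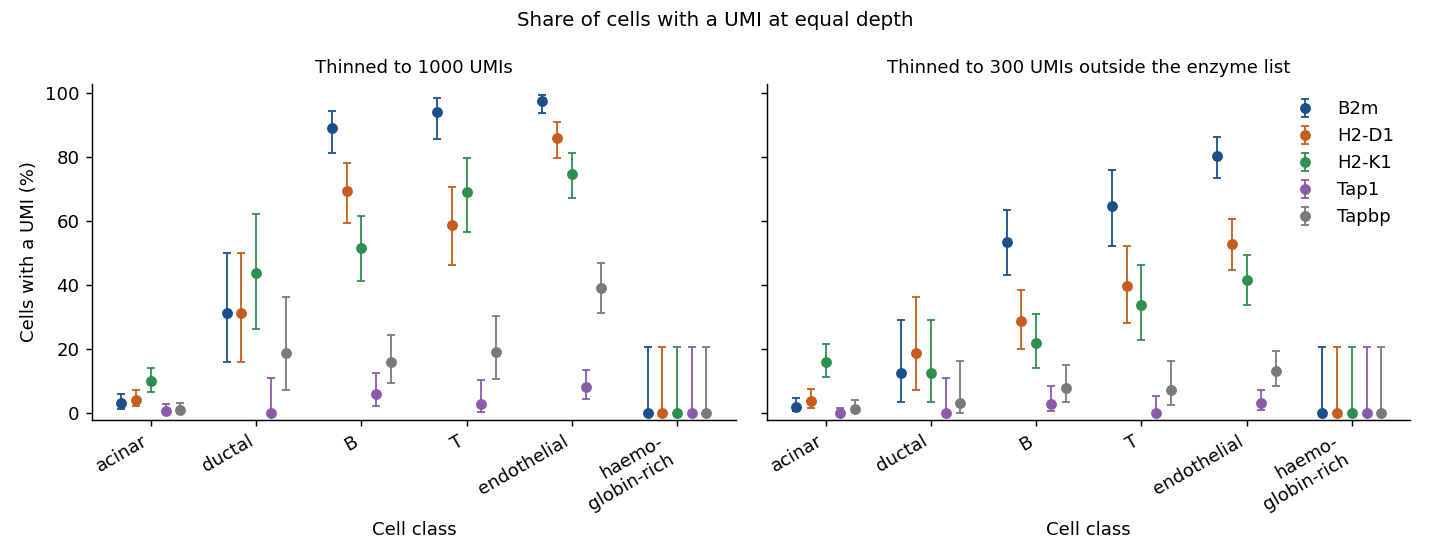
Share of cells in percent with at least 1 UMI of each member, after thinning each cell to 1000 UMIs (left) or to 300 UMIs outside the enzyme list (right); bars are exact 95% binomial intervals. At 1000 UMIs B2m is found in 3.05% of acinar and 97.5% of endothelial cells, and H2-K1 is the member found in most acinar cells (9.92%).

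Genes that supply and load class I peptides ran from far lower to higher in acinar cells, with counts and a median close to those of all genes. Of 22 such genes 15 were above the floor against endothelial cells, and 12 of them were over 2-fold lower, beside 80.3% of all genes. Of the other 3, 1 was higher and 2 lay between, and the median log2 ratio was -2.68 beside -2.69 over all genes. The lowest were the inducible proteasome subunits Psmb9 (1 UMI in acinar and 90 in endothelial cells, log2 ratio -7.48, -13.4 to -5.54) and Psmb8 (4 and 216 UMIs, -7.15, -9.20 to -5.94). The proteasome activator subunits Psme1 (3 and 141 UMIs, -6.90) and Psme2 (6 and 106 UMIs, -5.59) came next. These 4, with Psmb5 and Pdia3 named below, were the 6 of the 15 that met the floor through endothelial UMIs alone. A lower acinar value was built into their choice, so the count of 12 leans on the floor. The constitutive proteasome subunits Psmb5, Psmb6 and Psma7 had log2 ratios of -2.47, -2.39 and -2.68. The genes at the upper end beside Psmb10 were Hspa5, the chaperone BiP, at 0.99, Sec61a1, the translocation channel, at -0.34 and Canx, a lectin chaperone, at -1.30. Other genes of protein folding in the endoplasmic reticulum were lower, with Calr, a second lectin chaperone, at -1.54 and Pdia3, a disulfide isomerase, at -2.96. Hspa5, Sec61a1 and Canx, with enzyme UMIs left out, turned to 2.84, 1.51 and 0.55 and Calr to 0.31, while Pdia3 stayed lower at -1.11 (-1.78 to -0.50). The list then split into 7 lower, 3 higher and 5 between, beside 48.2% of all genes lower and 16.7% higher. Summed over all 22 genes, with no floor, it stood at 1472 CPM in acinar and 4031 CPM in endothelial cells. Leaving enzyme UMIs out made the acinar sum the highest, at 5440 CPM (5178 to 5711), against 4122 CPM (3917 to 4336) in endothelial cells. Ductal, T and B cells were then at 3086, 2987 and 2593 CPM. Psmb10 gave 783 of the 1624 acinar UMIs in the sum.

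Psmb10, the third inducible proteasome subunit, stood apart from its partners. It had 783 UMIs in acinar cells (710 CPM, 661 to 761) and 109 in endothelial cells (291 CPM, 239 to 351), a log2 ratio of 1.28 (0.99 to 1.59). It was found in 71.0% of acinar and 44.0% of endothelial cells. The end of Psmb10 lies 1872 bases before the start of Ctrl, an acinar protease gene on the same strand of chromosome 8 that stood at 17329 CPM in acinar cells. For each 1000 Ctrl UMIs there were 41.0 Psmb10 UMIs in acinar and 470 in endothelial cells, and across the 262 acinar cells the Spearman correlation of their CPM was -0.30. With Cpa1, an acinar enzyme gene taken for comparison, it was -0.25, close to the value for Ctrl. Both describe cells that share 1 pool. Whether reads from Ctrl transcripts entered the Psmb10 count was not tested.

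Against ductal cells 8 genes of the supply list were above the floor, 5 over 2-fold lower, 1 higher and 2 between, beside 72.1% of all genes lower and 11.1% higher. Psmb6, Canx, Psmb5, Psma7 and Calr had log2 ratios of acinar over ductal cells between -2.41 and -1.91, close to the median of -2.10 over all genes. Psmb10 was at 2.95 (2.16 to 4.02), Hspa5 at 0.72 and Sec61a1 at -0.76. With enzyme UMIs left out none of the 8 was over 2-fold lower and 3 were higher, beside 30.6% and 23.3% of all genes.

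The other class I heavy chains were few in acinar cells. Of 19 listed genes 14 were measured, and summed over all 14, with no floor on single genes, they stood at 21.8 CPM in acinar cells (13.9 to 32.4, 24 UMIs), 288 CPM in ductal cells (202 to 399, 36 UMIs), 928 CPM in B cells (799 to 1072, 185 UMIs), 808 CPM in T cells (681 to 950, 145 UMIs) and 1465 CPM in endothelial cells (1345 to 1593, 548 UMIs). B and T cells overlapped and the other steps did not. The sum was, with enzyme UMIs left out, 80.4 CPM in acinar cells (51.5 to 120) and 293 CPM in ductal cells (205 to 406), still clear of each other. Singly, 5 of the 14 were above the floor against endothelial cells and 9 were under it, so nothing is said of each of those 9. The 5 were H2-Q4 (1 acinar and 110 endothelial UMIs, log2 ratio -7.76), H2-Q7 (3 and 105, -6.47), H2-Q6 (2 and 71, -6.40), H2-T22 (4 and 99, -6.03) and Fcgrt (2 and 49, -5.87), the Fc receptor chain that also pairs with B2m. All 5 were over 2-fold lower, beside 80.3% of all genes, or 48.2% with enzyme UMIs left out. For 4 of them the endothelial UMIs alone met the floor, and Fcgrt had 49 there, so a lower acinar value was built into the choice and the count is no support for it. The same holds for ductal over endothelial cells, where these 5 were over 2-fold lower, beside 27.9% of all genes. In B and T over endothelial cells 6 were above the floor, of which 1 in B cells, beside 42.8% of all genes, and 2 in T cells, beside 44.3%, were over 2-fold lower.

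**Figure D5:**
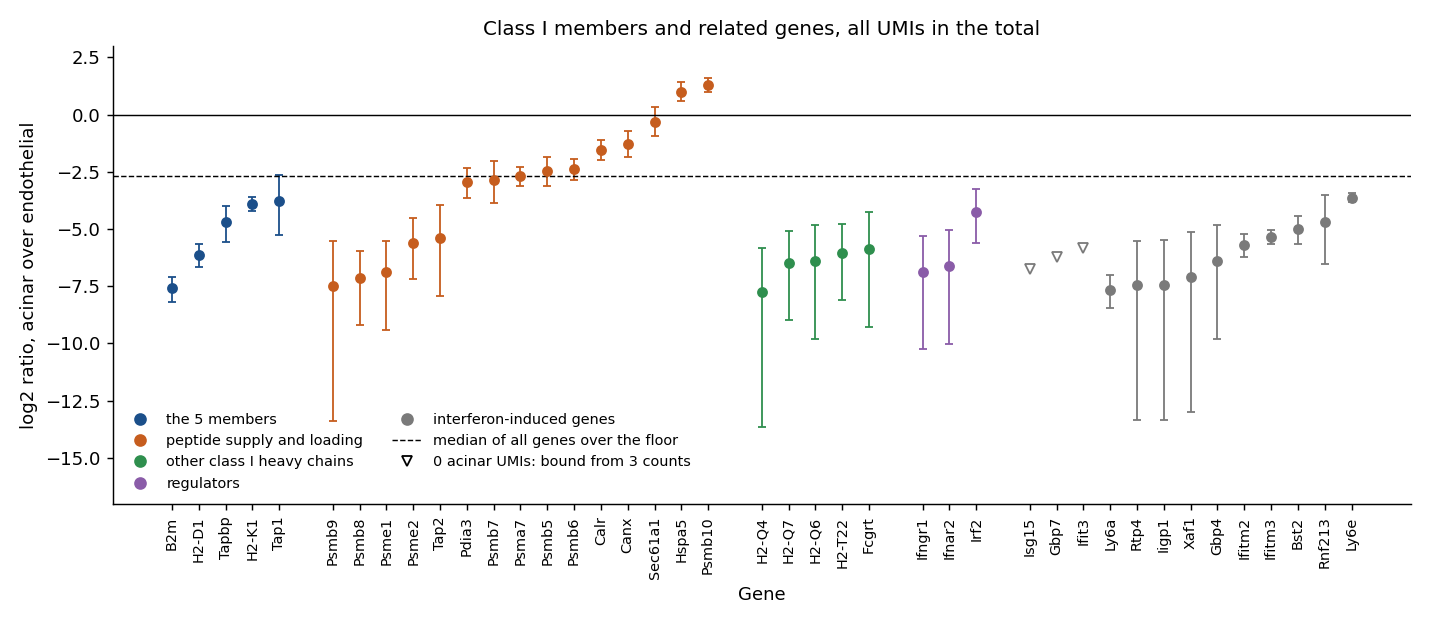
Log2 ratios of acinar over endothelial cells for the 5 members and for the listed genes above the floor, all UMIs in the total; bars are 95% intervals, open triangles are bounds from 3 counts for genes with no acinar UMI, and the dashed line is the median of all genes above the floor (-2.69). Psmb10 (1.28) and Hspa5 (0.99) lie above 0. B2m (-7.57) lies just below the inducible proteasome subunits Psmb9 (-7.48) and Psmb8 (-7.15), which rest on 1 and 4 acinar UMIs.

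Regulators of class I genes were also few in acinar cells when summed. The 19 listed genes, all measured, stood together at 51.7 CPM in acinar cells (39.1 to 66.9, 57 UMIs), 552 CPM in ductal cells (429 to 698, 69 UMIs), 999 CPM in B cells (865 to 1147, 199 UMIs), 835 CPM in T cells (707 to 980, 150 UMIs) and 1411 CPM in endothelial cells (1293 to 1537, 528 UMIs). Leaving enzyme UMIs out gave sums of 191 CPM in acinar cells (145 to 247) and 562 CPM in ductal cells (437 to 711). Against endothelial cells 3 genes were above the floor and 16 under it. These 3 were the interferon receptor chains Ifngr1 (2 acinar and 98 endothelial UMIs, log2 ratio -6.86) and Ifnar2 (2 and 83, -6.62), and the transcription factor Irf2 (8 and 55, -4.27). Each met the floor through endothelial UMIs alone, so a lower acinar value was again built into the choice, and 3 of 3 over 2-fold lower stands beside 80.3% of all genes. In ductal over endothelial cells 2 of these 3 were over 2-fold lower, beside 27.9% of all genes.

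Interferon-induced genes stood highest in endothelial cells. Summed over all 25 listed genes, they were at 405 CPM in acinar cells (368 to 444, 447 UMIs), 3159 CPM in ductal cells (2855 to 3487, 395 UMIs), 2835 CPM in B cells (2606 to 3079, 565 UMIs), 1738 CPM in T cells (1550 to 1941, 312 UMIs) and 14484 CPM in endothelial cells (14101 to 14875, 5419 UMIs). The acinar sum was 1497 CPM (1362 to 1643) with enzyme UMIs left out, which overlaps T cells at 1765 CPM (1574 to 1972) and lies below ductal cells at 3216 CPM (2907 to 3550) and endothelial cells at 14813 CPM (14421 to 15212). Ly6e gave 258 of the 447 acinar UMIs, and 11 of the 25 genes had no acinar UMI. It also gave 205 of the 395 ductal, 387 of the 565 B and 133 of the 312 T UMIs. Most endothelial UMIs came from Ly6a (1255), Ifitm3 (1248), Ly6e (1084) and Ifitm2 (655). The sums thus lean on a few genes of the list.

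Singly, 13 interferon-induced genes were above the floor in acinar over endothelial cells and all 13 were over 2-fold lower on both totals, beside 80.3% of all genes, or 48.2% with enzyme UMIs left out. In 10 of the 13 the endothelial UMIs alone met the floor, and 2 had at least 50 acinar UMIs, Ly6e (258 acinar and 1084 endothelial UMIs, log2 ratio -3.63) and Ifitm3 (91 and 1248, -5.33). Ly6a, the surface protein Sca-1, had 18 UMIs in acinar and 1255 in endothelial cells (-7.64), Bst2 had 26 and 286 (-4.99) and Rnf213 had 5 and 48 (-4.70). Isg15, a ubiquitin-like modifier, Gbp7, a guanylate-binding protein, and Ifit3, an antiviral RNA-response gene, had no acinar UMI. A limit of 3 acinar counts lay 107-fold, 73.7-fold and 56.0-fold below their endothelial levels. The intervals of their log2 ratios ended at -6.42, -5.87 and -5.46.

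Against endothelial cells the log2 ratio was past 2-fold lower for 13 of 14 such genes above the floor in ductal cells, beside 27.9% of all genes, 13 of 15 in B cells, beside 42.8%, and 13 of 13 in T cells, beside 44.3%. Endothelial UMIs alone met the floor for 9, 10 and 11 of these genes, so the counts lean on the floor. The sums above use no floor but lean on a few genes. Against ductal cells 3 interferon-induced genes were above the floor in acinar cells, Ifitm2 (-3.73), Ly6e (-2.81) and Ifitm3 (-2.50), all over 2-fold lower, beside 72.1% of all genes. With enzyme UMIs left out 1 of these 3, Ifitm2, stayed past 2-fold (-1.87), beside 30.6%. No other heavy chain and no regulator reached the floor in that comparison.

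Genes with the pattern most like that of B2m over the 5 classes were found by the root mean square difference of log2(CPM + 10), centred per gene, with enzyme UMIs left out. Among genes with at least 200 UMIs the nearest to B2m was Psmb8 (0.38), followed by H2-Q4 (0.50), Tmsb4x, which binds actin monomers (0.55), Ets1, a transcription factor (0.58), and Crip1, a LIM domain protein (0.64). Nearest to H2-D1 were H2-Q4 (0.26), the actin-branching complex subunits Arpc1b (0.30) and Arpc3 (0.36), Tpm3, a tropomyosin (0.33), and Gnai2, a G protein subunit (0.35). Between members the difference was 0.57 for B2m and H2-D1, 0.81 for H2-D1 and H2-K1, 1.31 for B2m and H2-K1 and 0.31 for H2-K1 and Tapbp. H2-K1 was therefore nearer to the loading factor than to the light chain or to the other classical heavy chain. These are 5 points per gene from 1 pool. The acinar points of H2-Q4 and Ets1 (3.35 CPM each) and of Psmb8 (13.4 CPM) rest on few UMIs, so the added 10 CPM weighs heavily on them.

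H2-D1 and H2-K1 are close relatives, and reads could be split between them. Over the last 500 bases of the longest coding transcript, 9.53% of the 50-base windows of H2-D1 and 0.443% of those of H2-K1 occur in a transcript of another gene. The reference genome carries 1 set of class I alleles. Those of these mice are a point not given in the sources used here, and reads of other alleles could be counted unevenly. Within the 159 endothelial cells the members varied together to a degree, with a Spearman correlation of CPM of 0.45 for B2m and H2-D1, 0.30 for B2m and H2-K1 and 0.34 for H2-D1 and H2-K1. In sparse counts of 1 pool these are descriptions only. Tap1 overlaps the start of Psmb9 on the opposite strand by 212 bases, and Tapbp overlaps Zbtb22 on the same strand.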

How the data were processed

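The deposited table holds raw UMI counts, whole numbers in each entry, with 14793 gene rows for 728 cells. The submitters' processing notes name Cell Ranger and the mm10 build, with versions, roles and the authors' filter on cells not given in the sources used here. Symbols on more than 1 row (4 symbols) were summed. Barcodes ended in 1 (667 cells) or 2 (61 cells), no label ties an ending to a replicate, and no test on sums per sample was possible. Depth was 2353008 UMIs, 1004 to 53222 per cell.

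Within a class, UMIs were summed over cells and scaled to CPM. Intervals are exact (Poisson for levels, conditional binomial for ratios, Clopper-Pearson for shares), and limits for 0 UMIs use 3 counts of the class. Log2 ratios add 0.5 UMIs to each sum, the floor was 50 UMIs over both classes, and 2-fold was the fixed size. Cells meeting several class rules were left out. Enzyme totals used 32 measured of 37 listed genes. Genes named beside the members were the 4 highest and 4 lowest of each list above the floor against endothelial or ductal cells, and the 5 nearest to B2m and to H2-D1. The members, classes and lists were chosen with earlier results of these data known. A listed regulator is not reported here. Lists were also summed over all their measured genes with no floor, a choice made after seeing the data. The interval code was checked on simulated counts. Doublets were called with Scrublet in scanpy 1.11.5 (3 cells, 0.412%, too few to have worked) and kept. Coordinates are from GENCODE M21, and Python 3.11.15, numpy 2.4.6, scipy 1.17.1, pandas 2.3.3, anndata 0.12.19 and matplotlib 3.10.9 were used.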

Additional observations from a re-analysis of the deposited data

Results flagged for a closer look

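The 80 cells that met no class rule were outside the comparisons, and all 5 members stood there above the limit that a count of 0 allows, 14.4 CPM. B2m was at 2487 CPM, H2-D1 at 1294 CPM, H2-K1 at 731 CPM, Tapbp at 149 CPM and Tap1 at 57.7 CPM. H2-K1 had 0.294 UMIs for each B2m UMI (0.244 to 0.353). Among them, 21 cells with at least 2 UMIs of the macrophage or dendritic genes C1qa, C1qb and C1qc had B2m at 3171 CPM and H2-K1 at 932 CPM. The 18 cells with at least 2 UMIs of the mesenchymal genes Dcn, Col1a1 and Col3a1 had B2m at 1741 CPM and H2-K1 at 307 CPM. The 41 remaining cells had B2m at 2580 CPM and H2-K1 at 880 CPM.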

How the results depend on the processing

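Over 14 other settings, 386 log2 ratios of members were recomputed. All 232 with acinar cells on top stayed negative, and 325 of the 386 stayed within the interval of the reported value. No value past 2-fold on at least 50 UMIs changed sign. Ratios with too few UMIs or cells in a setting were skipped, among them Tap1 in acinar over ductal cells (7 and 0 UMIs) throughout. The 4 positive values were Tap1 in B and H2-K1 in T over endothelial cells. With enzyme UMIs left out of totals, the acinar over endothelial ratios were -5.72 for B2m, -4.26 for H2-D1 and -2.05 for H2-K1. With ribosomal protein and mitochondrial UMIs also left out, they were -5.49, -4.04 and -1.82. Stricter class thresholds gave -8.32 for B2m and -4.48 for H2-K1. The cause was not tested beyond the change of totals and cells. The log2 odds of H2-K1 against B2m in acinar over endothelial cells, 3.69, ranged from 3.56 to 3.92 over the settings that keep counts. Ending 2 alone held 1 endothelial cell and gave no such value. Counts of genes past 2-fold moved with the floor. Of acinar over endothelial genes 1482 were lower and 136 higher, against 875 and 303 with enzyme UMIs left out, 3750 and 232 at a floor of 20 UMIs, 681 lower at 100 and 10191 and 640 with no floor. Of acinar over ductal genes 691 were lower and 106 higher, against 284 and 216, 1876 and 166, 343 lower, and 9910 and 267 under the same settings. The settings without 1 cell or thinned to 300 UMIs, and the odds, were added after seeing the data. So was the acinar setting with no UMI of the endothelial, B, T, class II and macrophage or dendritic markers. No paired analysis was possible because cells could not be tied to the 2 replicates, which also prevented leaving out a replicate. Depth limits Tap1, with 79 UMIs in all cells, and ductal values, from 32 cells. Free RNA and variation between animals are not covered by any interval.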

Other observations

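The 10 cells that met more than 1 class rule were left out of the comparisons. Of these, 6 met the acinar and ductal rules together. The 10 cells had 55 UMIs of B2m, 19 of H2-D1 and 41 of H2-K1, and 0.745 H2-K1 UMIs for each B2m UMI (0.485 to 1.14). Kept in each class whose rule they met, they moved the log2 ratio of B2m in acinar over ductal cells to -3.95.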
